A study of Homo sapiens with 4 samples.

Results

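HOX genes encode homeodomain transcription factors that lie side by side in 4 clusters, HOXA on chromosome 7, HOXB on chromosome 17, HOXC on chromosome 12 and HOXD on chromosome 2. The hg38 gene table held 39 protein-coding HOX genes. Open chromatin at these genes was described through 39 accessible intervals, out of 73135 intervals counted in all. An interval was given to a HOX gene when its midpoint lay in that gene's body, or otherwise when that gene had the nearest end of any protein-coding gene within 100 kb. Distances of HOX intervals from genes are those of their midpoints. The HOXC cluster held 17 of these intervals, HOXB 10, HOXA 9 and HOXD 3.

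The data came from ATAC-seq, which reads where a transposase can insert into nucleosome-free DNA. The cells were TMD8, an established cell line of diffuse large B cell lymphoma of the activated B cell-like (ABC) type. The shIRF4 group had 2 libraries from cells carrying a short hairpin RNA (shRNA) against IRF4, a transcription factor of activated B cells and plasma cells, and the control group had 2 libraries from cells carrying a scrambled shRNA. All 4 libraries share the single TMD8 line, and no time after silencing is given in the labels. The labels do not say whether libraries of a group came from separate cultures, so p-values measure only the spread between libraries, which may be technical.

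Along each HOX cluster, genes at the 3′ end act early and toward the head of the embryo, and genes at the 5′ end act later and toward the tail. Trithorax-type MLL complexes keep active HOX chromatin open, Polycomb complexes keep silent HOX chromatin closed, and HOX proteins bind DNA with TALE-class partners of the PBX and MEIS families. In blood, HOXA9, HOXA10 and HOXB4 are known for their part in stem and progenitor cells.

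The total count per library was 17954924 and 9112860 in shIRF4 cells and 12152153 and 13609123 in control cells. At the HOX intervals this gave 15 to 761 reads per interval and library. Gene-end intervals, those within 1 kb of either end of a gene, of 6 of 7 B cell marker genes summed to 444 and 405 CPM in shIRF4 libraries and to 442 and 438 CPM in control libraries, where CPM are library-scaled counts with TMM factors applied. Such intervals were present at 2 of 5 T cell, 1 of 3 NK cell, 1 of 4 myeloid and 1 of 5 epithelial or fibroblast markers, and none of these lists summed above 15.5 CPM in any library. The 15 tested intervals of IRF4 itself gave 0 higher and 2 lower calls, where 7.26% of all tested intervals were called higher and 15.5% lower. ATAC-seq reads DNA, so they do not measure how far IRF4 was silenced. In bulk cells, a larger share of cells with an open site and more cuts per cell cannot be told apart.

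Almost no HOX interval was called as different between shIRF4 and control cells. Of the 39, all of which passed the filter on low counts, 1 rose, 0 fell and 38 were not called (edgeR quasi-likelihood F-test, Benjamini-Hochberg (BH) adjusted p below 0.05 over all 73028 tested intervals). Over all tested intervals, 22.8% were called, 7.26% as higher and 15.5% as lower, against 2.56% of the HOX intervals. At an unadjusted p below 0.05, 2 HOX intervals passed, or 5.13%, against 34.1% of all tested intervals. With DESeq2, 0 HOX intervals passed the adjusted threshold and 1 passed the unadjusted p, and 6.24% of all intervals were called.

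Changes at HOX intervals were small at levels close to those of other intervals. The median size of the log2 fold change, whatever its sign, was 0.0968 at HOX intervals and 0.216 over all tested intervals. The log2 fold change lay within 0.2 of 0 at 31 of the 39 HOX intervals (79.5%, against 47.3% of all). The whole 95% interval of the fold lay inside 1.5-fold at 30 of them (76.9%, against 50.6% of all). Median levels were 6.83 CPM at HOX intervals and 6.21 CPM over all, and median standard errors (SE) of the log2 fold change were 0.160 and 0.171. Among intervals in the HOX range of abundance, 22.6% were called. Small changes were not particular to HOX intervals. Over all gene-end intervals, with a median level of 22.6 CPM, the median size was 0.0995. Of these, 76.4% lay within 0.2 of 0 and 84.1% had the whole 95% interval inside 1.5-fold.

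The signed log2 fold change of HOX intervals had a median of 0.02, with a range of -0.18 to 0.56, and 22 were positive and 17 negative. Its 5th to 95th percentile ran from -0.17 to 0.47 at HOX intervals and from -0.89 to 0.61 over all tested intervals, whose median was 0.01. The shIRF4 and control libraries did not overlap at 14 HOX intervals (35.9%, against 59.1% of all), 7 with shIRF4 higher (28.7% of all) and 7 with shIRF4 lower (30.3% of all). They overlapped at the other 25.

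**Figure D1:**
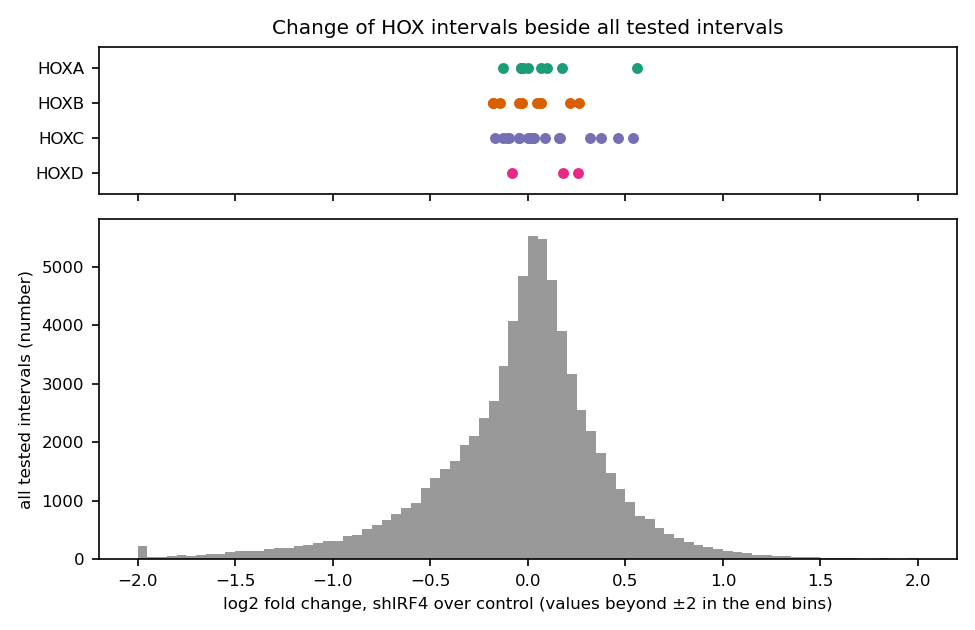
Log2 fold change of shIRF4 over control at each HOX interval, 1 point per interval by cluster (top), and the number of all 73028 tested intervals per bin of log2 fold change (bottom, values beyond ±2 in the end bins). The 39 HOX intervals lie between -0.18 and 0.56, while all tested intervals extend further on both sides, from -3.72 to 2.61.

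The only HOX interval that passed the test lies beyond the 3′ end of HOXC4. It spans chr12:54080932-54081984 (hg38), 25428 bp outside the HOXC4 body. This interval overlaps the non-coding genes FLJ12825 and LOC100240735 and covers the start of LOC100240735. It was given to HOXC4 by position only, since assignment used protein-coding genes. Its level was 11.3 and 11.3 CPM in shIRF4 libraries, against 8.72 and 6.99 CPM in control libraries. Both shIRF4 libraries lay above both control libraries, with 209 and 104 reads in shIRF4 libraries and 104 and 94 reads in control libraries. The log2 fold change was 0.54 (SE 0.14, 95% interval 0.25 to 0.83; edgeR adjusted p = 0.00681), a fold of 1.45 with an interval of 1.19 to 1.77. The call was lost without control replicate 2 (0.38, edgeR adjusted p = 0.183) and with DESeq2 (0.54, DESeq2 adjusted p = 0.201). It also did not pass a test against a 1.5-fold change, which called 3.95% of all intervals.

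Its nearest HOX neighbour, at chr12:54082362-54082813, had 6.62 and 6.98 CPM in shIRF4 libraries and 7.05 and 7.66 CPM in control libraries. Here the shIRF4 libraries lay below the control libraries, with a log2 fold change of -0.13 (edgeR adjusted p = 0.615). The 2 adjacent intervals had changes of opposite sign, and only the one nearer to HOXC4 was called.

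The RefSeq promoter windows (GRCh38.p14, 250 bases before to 50 bases after a gene's start) show what sequence underlies these sites. The window of LOC100240735, a non-coding gene, is printed because 211 of its 300 bases lie in the interval that rose. It was chosen after the values were seen. The windows of HOXA3, HOXA10 and HOXA13 are the HOX gene windows that overlap an interval, and that of HOTTIP, a non-coding RNA gene transcribed away from HOXA13, is printed beside HOXA13 because they share the same open interval. Of the 39 HOX genes, 20 had a window in the table. For HOXA10, the more upstream of its windows is given. Sequences run 5′ to 3′ on the gene's strand, and capitals mark matches to the IRF-type motifs GAAANNGAA and GGAANNGAA or the AP-1-type motif TGANTCA, searched on both strands.
LOC100240735, chr12:54081774-54082073, minus strand: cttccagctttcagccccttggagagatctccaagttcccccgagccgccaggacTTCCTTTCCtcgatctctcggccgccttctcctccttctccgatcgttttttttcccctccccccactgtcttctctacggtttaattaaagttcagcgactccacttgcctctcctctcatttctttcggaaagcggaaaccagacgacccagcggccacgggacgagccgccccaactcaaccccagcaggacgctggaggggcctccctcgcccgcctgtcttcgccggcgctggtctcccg
HOXA3, chr7:27150901-27151200, minus strand: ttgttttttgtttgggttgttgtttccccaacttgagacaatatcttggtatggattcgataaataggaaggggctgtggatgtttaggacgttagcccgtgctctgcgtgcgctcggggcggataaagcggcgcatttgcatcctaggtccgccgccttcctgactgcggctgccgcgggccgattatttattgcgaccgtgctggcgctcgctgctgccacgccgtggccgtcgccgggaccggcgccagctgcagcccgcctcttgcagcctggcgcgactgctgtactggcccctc
HOXA10, chr7:27179812-27180111, minus strand: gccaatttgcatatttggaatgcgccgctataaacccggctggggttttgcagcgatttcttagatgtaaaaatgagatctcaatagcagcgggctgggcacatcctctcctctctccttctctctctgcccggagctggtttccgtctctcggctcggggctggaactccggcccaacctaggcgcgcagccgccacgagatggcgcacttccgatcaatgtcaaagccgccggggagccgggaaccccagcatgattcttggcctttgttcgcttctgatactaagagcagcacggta
HOXA13, chr7:27200042-27200341, minus strand: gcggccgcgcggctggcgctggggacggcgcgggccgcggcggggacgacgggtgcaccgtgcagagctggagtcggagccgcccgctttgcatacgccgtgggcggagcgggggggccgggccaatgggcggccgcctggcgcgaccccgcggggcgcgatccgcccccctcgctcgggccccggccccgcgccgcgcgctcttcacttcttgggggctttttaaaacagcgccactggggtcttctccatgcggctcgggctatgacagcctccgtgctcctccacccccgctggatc
HOTTIP, chr7:27200171-27200470, plus strand: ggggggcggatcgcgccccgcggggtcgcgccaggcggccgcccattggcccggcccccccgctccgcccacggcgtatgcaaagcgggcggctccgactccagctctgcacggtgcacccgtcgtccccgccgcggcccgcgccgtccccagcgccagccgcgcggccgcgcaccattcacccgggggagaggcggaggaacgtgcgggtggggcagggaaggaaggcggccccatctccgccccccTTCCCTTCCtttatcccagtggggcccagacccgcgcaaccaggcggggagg

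The LOC100240735 window held 1 match to GGAANNGAA, 195 bases before the gene start, and that match lay 26 bp outside the interval that rose. The HOTTIP window held 1 match to GGAANNGAA, 2 bases before its start and inside the interval shared with HOXA13. The printed HOXA3, HOXA10 and HOXA13 windows held no match to any of the 3 motifs. Of the windows at HOX intervals not printed, that of the non-coding gene LOC105369775 held 1 match to GAAANNGAA. It lay 32 bp outside the HOXC12 interval that this window overlaps. The other unprinted windows, among them that of LINC02086 at a HOXB9 interval, held no match. Over 35116 promoter windows of the same length, 8.11% held GAAANNGAA, 7.79% held GGAANNGAA and 7.71% held TGANTCA. The HOXA13 window was rich in CpG dinucleotides, with 44 of them and 76.3% G and C, against a median of 14 and 58.7% over all windows. A match describes the letters only, and binding was not measured.

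In the HOXC cluster, the interval with the highest level sits at the shared 5′ start region of HOXC4, HOXC5 and HOXC6. This interval, chr12:54017322-54018855, had 41.3 and 42.4 CPM in shIRF4 libraries and 43.5 and 40.03 CPM in control libraries. It held 28.7% of the summed HOXC level, the groups overlapped, and the log2 fold change was 0.00 (SE 0.07, 95% interval -0.15 to 0.16; edgeR adjusted p = 0.991). No other HOX interval had an SE as small. The interval within HOXC4 at chr12:54052827 had 14.6 and 16.04 CPM in shIRF4 libraries and 15.2 and 17.4 CPM in control libraries, also with overlap (log2 fold change -0.11).

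The remaining HOXC intervals had lower levels. At HOXC10, a gene of the tail-side limb and trunk program, 2 intervals lie at the start of the gene. The smaller, 834 bp outside the body, had the lowest level of all HOX intervals and counted 45 and 27 reads in shIRF4 libraries and 33 and 15 reads in control libraries. Its log2 fold change was 0.46 (SE 0.31, 95% interval -0.17 to 1.10; edgeR adjusted p = 0.307). Without control replicate 1 the value was 1.22 and the interval was called. The larger, which covers the HOXC10 start, had 8.47 and 7.20 CPM in shIRF4 libraries and 8.56 and 8.56 CPM in control libraries (log2 fold change -0.10).

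Inside the HOXC4 to HOXC6 bodies, 2 minor intervals had shIRF4 libraries above control libraries without passing the test. The HOXC6 interval at chr12:54024106 had 3.42 and 3.16 CPM in shIRF4 libraries and 2.35 and 2.75 CPM in control libraries (log2 fold change 0.38, edgeR adjusted p = 0.26). The HOXC4 interval at chr12:54036821 had 4.89 and 4.69 CPM in shIRF4 libraries and 3.78 and 3.94 CPM in control libraries (0.32, edgeR adjusted p = 0.261). In the other direction, the HOXC12 interval had 8.58 and 8.95 CPM in shIRF4 libraries and 10.1 and 9.52 CPM in control libraries (-0.17, edgeR adjusted p = 0.414). HOXC8, a trunk gene of the middle of the cluster, had 10.4 and 10.4 CPM in shIRF4 libraries and 10.8 and 10.6 CPM in control libraries at its upstream interval (-0.04), with shIRF4 libraries below.

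The other 7 HOXC intervals overlapped between groups and had log2 fold changes between -0.05 and 0.17. At the HOXC8 start the values were 7.44 and 6.11 CPM in shIRF4 libraries and 6.54 and 7.22 CPM in control libraries (0.01). Of the 2 intervals nearest HOXC9, a gene of the trunk and motor neuron columns, the first had 4.45 and 5.02 CPM in shIRF4 libraries and 4.03 and 4.69 CPM in control libraries (0.09). The second had 4.89 and 3.05 CPM in shIRF4 libraries and 4.70 and 3.65 CPM in control libraries (0.03). The third HOXC10 interval, in the gene body, had 5.70 and 4.80 CPM in shIRF4 libraries and 5.54 and 4.17 CPM in control libraries (0.16). The 3 other intervals in HOXC5 and HOXC6 had 2.99 to 7.42 CPM in shIRF4 libraries and 2.16 to 6.62 CPM in control libraries. Within each of these 7, the libraries of 1 group differed by as much as the groups did.

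In the HOXA cluster, none of the 9 intervals was called. HOXA13, the most 5′ gene and a regulator of the distal limb and hindgut, had the HOXA interval with the highest level, chr7:27199188-27201757, which covers its start and that of HOTTIP. It had 36.7 and 36.1 CPM in shIRF4 libraries and 38.6 and 36.1 CPM in control libraries, and held 24.2% of the summed HOXA level. Its log2 fold change was -0.03 (SE 0.08, 95% interval -0.19 to 0.12; edgeR adjusted p = 0.806). The interval in the HOXA10 body had 24.8 and 25.3 CPM in shIRF4 libraries and 26.1 and 24.7 CPM in control libraries (log2 fold change -0.02, 95% interval -0.20 to 0.16). That nearest HOXA9 had 17.5 and 16.9 CPM in shIRF4 libraries and 18.9 and 15.8 CPM in control libraries (-0.00, 95% interval -0.22 to 0.22). The groups overlapped at all 3.

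HOXA3, a gene of the hindbrain and pharyngeal arches, held 2 intervals in its body, which as annotated also spans HOXA4, HOXA5 and HOXA6. That shared with the antisense gene HOXA-AS3 had 26.1 and 26.7 CPM in shIRF4 libraries and 26.4 and 27.5 CPM in control libraries (log2 fold change -0.03, 95% interval -0.21 to 0.14). The other, at chr7:27136488 between HOXA4 and HOXA5, had 5.48 and 8.07 CPM in shIRF4 libraries and 6.38 and 5.65 CPM in control libraries (0.10). The shIRF4 libraries at this second site differed more from each other than the groups did. A second HOXA10 interval, chr7:27179776-27180225, covers the start of the gene. It had 6.73 and 8.07 CPM in shIRF4 libraries and 6.63 and 7.14 CPM in control libraries (0.07), and overlapped between groups.

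The other HOX interval with an unadjusted p below 0.05 lies 10409 bp beyond HOXA13, at chr7:27210401-27210600. It had 3.04 and 2.84 CPM in shIRF4 libraries and 1.93 and 2.08 CPM in control libraries (0.56, SE 0.24, 95% interval 0.06 to 1.06; edgeR adjusted p = 0.104). The groups did not overlap there. At 20434 bp beyond HOXA13, the values were 4.61 and 5.13 CPM in shIRF4 libraries and 5.20 and 5.28 CPM in control libraries (-0.13, edgeR adjusted p = 0.67), with shIRF4 libraries below.

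In the HOXB cluster, none of the 10 intervals was called. HOXB3, a hindbrain gene that is also expressed in blood progenitors, had the interval with the highest HOXB level, chr17:48585068-48586041 in its body. It had 16.7 and 15.9 CPM in shIRF4 libraries and 16.2 and 15.2 CPM in control libraries (log2 fold change 0.07, SE 0.10, 95% interval -0.15 to 0.28; edgeR adjusted p = 0.703), with overlap. The interval that covers the HOXB4 start was given to HOXB3 by position. It had 8.96 and 8.29 CPM in shIRF4 libraries and 8.56 and 9.23 CPM in control libraries (-0.03, 95% interval -0.32 to 0.25), again with overlap. HOXB6, a trunk gene, had 8.58 and 8.40 CPM in shIRF4 libraries and 9.90 and 8.93 CPM in control libraries (-0.14, edgeR adjusted p = 0.513), with both shIRF4 libraries below. The interval nearest HOXB5 had 3.53 and 4.69 CPM in shIRF4 libraries and 3.61 and 4.46 CPM in control libraries (-0.04). Beyond HOXB1, the most 3′ gene of the cluster and a hindbrain gene, an interval 35735 bp away had 4.18 and 4.69 CPM in shIRF4 libraries and 5.37 and 4.54 CPM in control libraries (-0.18, edgeR adjusted p = 0.562). The groups overlapped at the HOXB5 and HOXB1 intervals.

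Between HOXB9 and HOXB13 the cluster has a long stretch without HOX genes, and 3 of the 4 intervals given to HOXB9 lie there. Their log2 fold changes were 0.26, 0.05 and 0.21 and none was called. The largest change, 10302 bp from HOXB9, had 7.93 and 6.44 CPM in shIRF4 libraries and 5.96 and 6.32 CPM in control libraries, without overlap (edgeR adjusted p = 0.267). The interval at 20287 bp had 5.92 and 6 CPM in shIRF4 libraries and 5.54 and 5.95 CPM in control libraries, and that at 45585 bp had 5.16 and 4.15 CPM in shIRF4 libraries and 3.69 and 4.54 CPM in control libraries. The groups overlapped at both. On the 3′ side of HOXB9 the remaining interval had 6.30 and 6.33 CPM in shIRF4 libraries and 5.87 and 6.17 CPM in control libraries (0.06). At HOXB13, a gene of the prostate and hindgut, the values were 6.79 and 6.11 CPM in shIRF4 libraries and 6.88 and 7.89 CPM in control libraries (-0.18, edgeR adjusted p = 0.463), with shIRF4 libraries below. A further interval in the same stretch was nearest to PRAC2 and is not counted among the HOX intervals. It had 7.71 and 7.75 CPM in shIRF4 libraries and 7.72 and 8.41 CPM in control libraries (-0.07, edgeR adjusted p = 0.801).

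The HOXD cluster had only 3 intervals and none was called. HOXD8, a gene of the trunk, had the interval with the highest HOXD level, chr2:176140493-176141187, 8145 bp outside the gene. It had 10.2 and 8.62 CPM in shIRF4 libraries and 9.98 and 10.3 CPM in control libraries (log2 fold change -0.08, SE 0.13, 95% interval -0.36 to 0.20; edgeR adjusted p = 0.726). HOXD13, a gene of the digits, had 9.34 and 7.75 CPM in shIRF4 libraries and 7.13 and 8.26 CPM in control libraries (0.18, edgeR adjusted p = 0.43). HOXD3 had 2.93 and 2.51 CPM in shIRF4 libraries and 2.68 and 2.01 CPM in control libraries (0.26, edgeR adjusted p = 0.507). The groups overlapped at all 3.

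**Figure D2:**
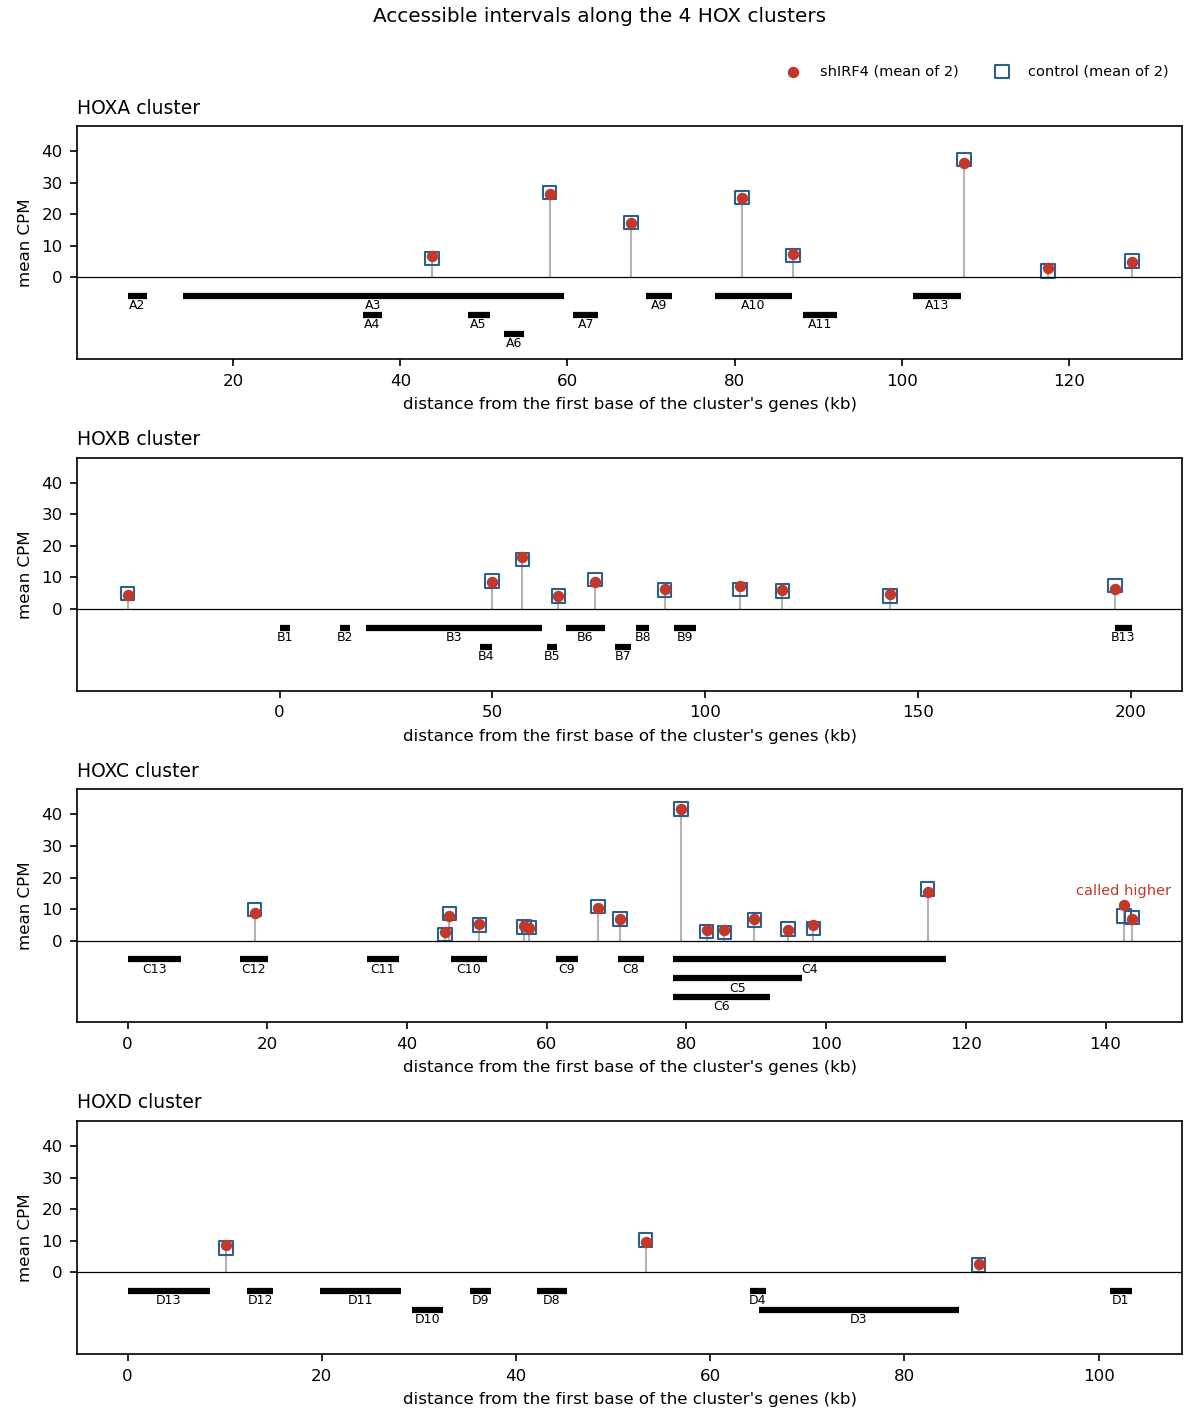
Mean CPM of 38 HOX intervals in shIRF4 (filled circles) and control (open squares) libraries, 2 each, against distance in kb from the first base of the cluster's genes, with gene bodies as bars below. Circles and squares nearly coincide along all 4 clusters, and the interval marked "called higher" beyond HOXC4 had 11.3 and 11.3 CPM in shIRF4 libraries and 8.72 and 6.99 CPM in control libraries.

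Intervals were spread unevenly over the clusters. From the first to the last base of its genes, HOXC had 12.8 intervals per 100 kb, HOXA 5.60, HOXB 4.49 and HOXD 2.90. HOX intervals covered 8.19% of that span in HOXC, 6.52% in HOXA, 3.04% in HOXB and 1.38% in HOXD. The widest stretch between midpoints of HOX intervals or span ends measured 27.3, 40.7, 52.8 and 43.2 kb in that order. A span can also hold intervals given to other genes, and that of PRAC2 lies inside the HOXB stretch of 52.8 kb. These are properties of intervals called on merged peaks and are a description with no test.

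At 18 of the 39 HOX genes no interval was assigned. They were HOXA2, HOXA4, HOXA5, HOXA6, HOXA7 and HOXA11, HOXB2, HOXB4, HOXB7 and HOXB8, HOXC11 and HOXC13, and HOXD1, HOXD4, HOXD9, HOXD10, HOXD11 and HOXD12. Assignment is by position, and HOXB4 shows its limit, since its start lies in the interval given to HOXB3. Likewise HOXA4, HOXA5 and HOXA6 lie within the annotated body of HOXA3, to which the intervals there were given. By the gene starts themselves, 6 of 39 lay in an interval, among them those of HOXA10, HOXA13, HOXB4, HOXC8 and HOXC10, and 10 lay within 1 kb of one. For microRNA genes, 6 were looked up: MIR10A, MIR10B, MIR196A1, MIR196A2, MIR196B and MIR615. None of these 6 lay in an interval. The closest of them, MIR615 in the HOXC5 region, was 404 bp away, followed by MIR10A at 881 bp, and MIR10B was the furthest at 9116 bp. MIR3185, which was not among the 6, overlapped the interval given to HOXB13.

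The distal interval given to HOXC4 by position was the only call at any distance from the genes. Of the 9 gene-end intervals, 0 were called by edgeR, 0 had an unadjusted p below 0.05 and 0 passed with DESeq2, against 10.2% of all gene-end intervals called by edgeR. Of the 17 intervals in a HOX gene body, 0 were called, with 0 at an unadjusted p below 0.05 and 0 by DESeq2. Over all tested intervals these shares were 22.8%, 34.1% and 6.24%. The share over all intervals in gene bodies was not computed. Of the 8 intervals over 10 kb outside a gene, 1 was called (12.5%), against 27.1% of all such intervals.

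**Figure D3:**
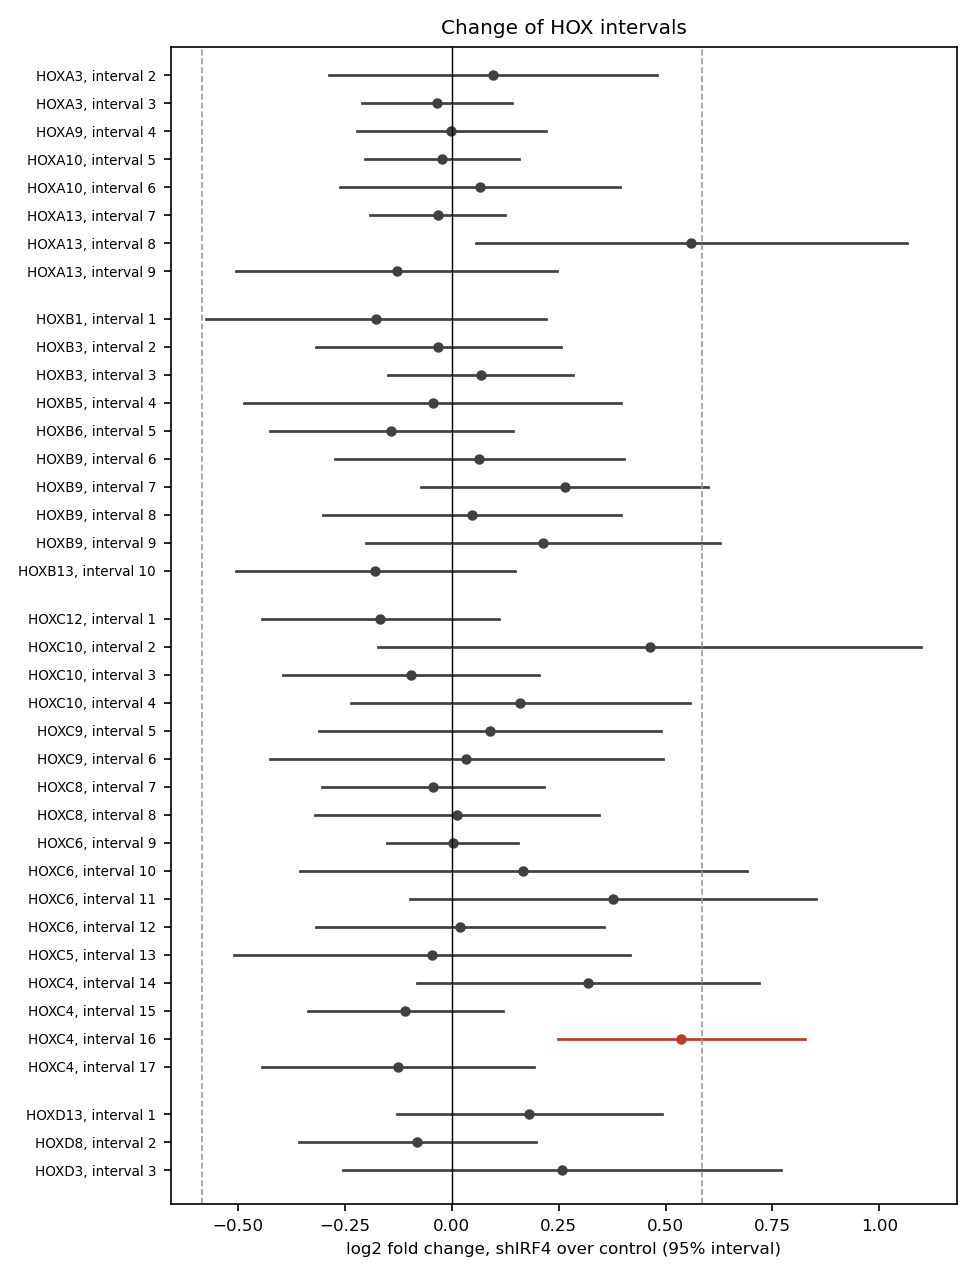
Log2 fold change of shIRF4 over control with its 95% interval for 38 HOX intervals, numbered by coordinate within its cluster, with dashed lines at a 1.5-fold change either way. The interval of HOXC4 in red is the called one (0.54, 95% interval 0.25 to 0.83), and the others include 0 except HOXA13 interval 8 (0.06 to 1.06).

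Summed over each cluster, shIRF4 and control libraries had nearly the same level. The HOXA intervals summed to 152 and 155 CPM in shIRF4 libraries and to 154 and 147 CPM in control libraries (154 ± 2.56 and 151 ± 5.04, mean ± SD, n = 2 each; log2 ratio 0.03, exact permutation test, two-sided, p = 0.667). The HOXB sums were 74.0 and 71.0 CPM in shIRF4 libraries and 71.6 and 73.2 CPM in control libraries (log2 ratio 0.00, exact permutation p = 1.0). The groups overlapped in both clusters.

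The HOXC sums were 147 and 147 CPM in shIRF4 libraries and 148 and 140 CPM in control libraries (147 ± 0.156 and 144 ± 5.58, mean ± SD, n = 2 each; log2 ratio 0.03, exact permutation p = 1.0). The HOXD sums were 22.5 and 18.9 CPM in shIRF4 libraries and 19.8 and 20.6 CPM in control libraries (log2 ratio 0.03, exact permutation p = 1.0). With 2 libraries against 2 this test cannot give a p below 0.333. An edgeR fit of the summed counts, added after seeing the data, gave 95% intervals of the fold of 0.940 to 1.08 for HOXA, 0.922 to 1.07 for HOXB, 0.944 to 1.09 for HOXC and 0.896 to 1.19 for HOXD (edgeR adjusted p = 0.903, 0.923, 0.833 and 0.794). All of these bounds lie inside 1.5-fold either way, and none shows that there was no change.

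**Figure D4:**
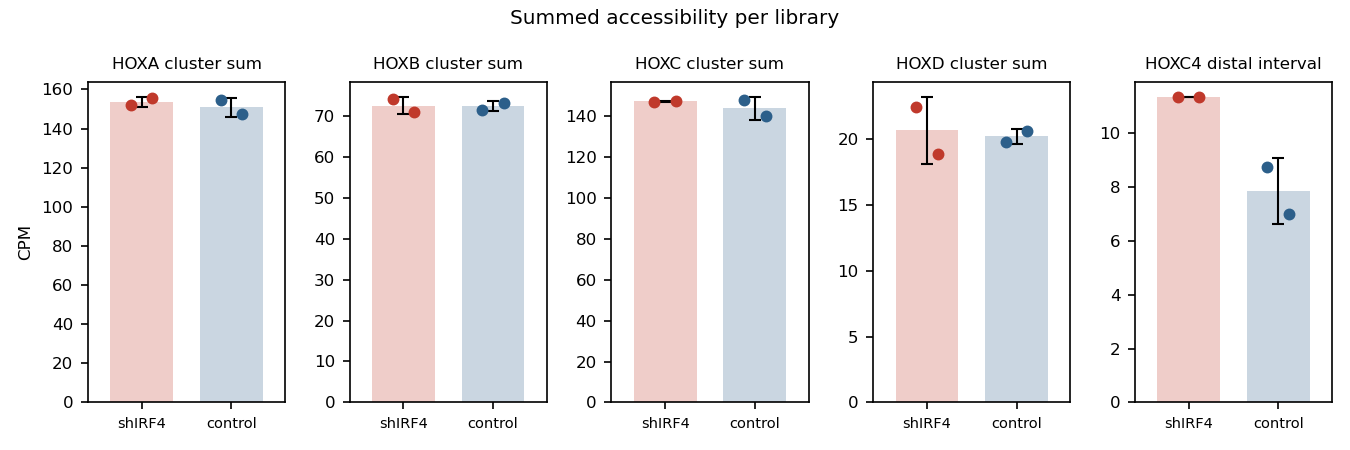
Summed CPM of the HOX intervals of each cluster, and CPM of the called HOXC4 interval, in shIRF4 (left) and control (right) libraries, with 1 point per library, bars at the mean and error bars of 1 SD (n = 2 each). The cluster sums overlap between the groups, while the HOXC4 interval stands at 11.3 and 11.3 CPM in shIRF4 libraries and at 8.72 and 6.99 CPM in control libraries.

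With counts summed per gene, 0 of the 21 HOX genes with an interval were called by edgeR, 0 had an unadjusted p below 0.05 and 0 passed with DESeq2, against 20.4% of all genes called by edgeR. Gene log2 fold changes ran from -0.19 to 0.24, the highest at HOXD3. HOXC4, to which the called distal interval was given by position, was not called as a gene.

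The partners and regulators of HOX proteins were called about as often as the rest of the genome. Over 36 such genes and 175 tested intervals, 8 rose and 31 fell (22.3% called, against 22.8% of all). These were 4.57% higher and 17.7% lower, against 7.26% and 15.5% of all tested intervals. The list had a median log2 fold change of -0.00, against 0.01 over all tested intervals, and MEIS1 and CDX4 had no interval. This list was chosen with earlier results known, and the comparison with HOX genes was not tested.

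Among TALE cofactors, which bind DNA together with HOX proteins, 3 of 33 intervals rose (9.09%, against 7.26% of all tested intervals). Another 2 fell (6.06%, against 15.5% of all). PBX3 fell at 1 of 4 intervals, the lowest of the named ones, chr9:125960710-125961419, with 5.92 and 6.76 CPM in shIRF4 libraries and 15.8 and 14.0 CPM in control libraries (log2 fold change -1.25, SE 0.14; edgeR adjusted p = 5.53e-07). With counts summed per gene, log2 fold changes were -0.09 at PBX3, 0.15 at MEIS2 and 0.03 at MEIS3 (edgeR adjusted p = 0.227, 0.053 and 0.739). MEIS2 rose at 1 of 10 intervals, with 17.97 and 15.9 CPM in shIRF4 libraries and 13.8 and 13.2 CPM in control libraries (0.34, SE 0.11; edgeR adjusted p = 0.0252). MEIS3 rose at 1 of 6, with 20.7 and 18.9 CPM in shIRF4 libraries and 15.4 and 16.2 CPM in control libraries (0.33, SE 0.10; edgeR adjusted p = 0.0193). The groups did not overlap at any of these intervals, which were named because they were called. They also did not overlap at 59.1% of all tested intervals.

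The MLL list held KMT2A, MEN1 and PSIP1, and also DOT1L, MLLT1, MLLT3 and AFF1, which act with MLL fusion proteins. Of its 47 intervals, 3 rose (6.38%, against 7.26% of all tested intervals) and 16 fell (34.0%, against 15.5% of all). None of the intervals at KMT2A, MEN1 and PSIP1 was called. Of the 16, 13 lay at MLLT1, a partner of MLL fusion proteins and of elongation complexes on chromosome 19. Its interval of smallest p, chr19:6225006-6230548, had 53.5 and 59.8 CPM in shIRF4 libraries and 85.6 and 90.1 CPM in control libraries (log2 fold change -0.64, SE 0.07; edgeR adjusted p = 2.85e-07). On chromosome 19 as a whole, 25.5% of tested intervals fell and the median log2 fold change was -0.16. Within 1 Mb of MLLT1 on either side, leaving MLLT1 out, 24 of 157 fell and the median was -0.01. DOT1L, the H3K79 methyltransferase, rose at 2 of 7 intervals and fell at 1, led by an interval with 7.93 and 7.20 CPM in shIRF4 libraries and 3.52 and 3.94 CPM in control libraries (1.03, SE 0.18; edgeR adjusted p = 0.000156). With counts summed per gene, MLLT1 had a log2 fold change of -0.39 (edgeR adjusted p = 0.000104) and DOT1L one of -0.12 (edgeR adjusted p = 0.159).

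Of the Polycomb intervals, 0 of 60 rose (against 7.26% of all tested intervals) and 11 fell (18.3%, against 15.5% of all). Of the 11, 8 lay among the 18 intervals at JARID2, a cofactor that recruits PRC2. The JARID2 interval named had 5.54 and 5.78 CPM in shIRF4 libraries and 10.2 and 11.1 CPM in control libraries (-0.92, SE 0.15; edgeR adjusted p = 7.08e-05). Summed per gene, JARID2 had a log2 fold change of -0.20 (edgeR adjusted p = 0.00678). None of the intervals at EZH2, EED, SUZ12 and BMI1, the core catalytic and structural subunits, was called. Upstream regulators had 2 of 27 intervals higher (7.41%, against 7.26% of all tested intervals), both at RARG, a retinoic acid receptor. They had 1 lower (3.70%, against 15.5% of all), at CYP26A1, which degrades retinoic acid. Summed per gene, RARG had a log2 fold change of 0.19 (edgeR adjusted p = 0.0175) and CYP26A1 one of -0.20 (edgeR adjusted p = 0.0929).

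Genes beside the clusters were set against them with the 3 nearest other protein-coding genes on each side of each cluster. Of 86 tested intervals at 23 of these 24 genes (EVX2 had none), 9 rose and 6 fell, or 17.4% called, against 22.8% of all tested intervals, and the difference from HOX intervals was not tested. At EVX1, a homeobox gene next to HOXA13 chosen for mention after its values were seen, 2 of 3 intervals fell. The nearer of the 2, at chr7:27248938-27249614 and 49.2 kb past the last base of the HOXA genes, had 5.37 and 5.02 CPM in shIRF4 libraries and 11.4 and 10.04 CPM in control libraries (log2 fold change -1.03, SE 0.15). The other, at chr7:27254638-27255050, had 1.85 and 2.29 CPM in shIRF4 libraries and 6.63 and 6.77 CPM in control libraries (-1.74, SE 0.21). Both shIRF4 libraries lay below both control libraries at each, as at 30.3% of all tested intervals.

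On the far side of the called HOXC4 interval lies SMUG1, a DNA glycosylase gene also chosen after its values were seen, where 3 of 11 intervals rose. The 2 of these nearest to HOXC4 lay 51.7 and 91.5 kb past the end of the HOXC genes. The first had 2.66 and 2.84 CPM in shIRF4 libraries and 1.76 and 1.34 CPM in control libraries (0.82, SE 0.26; edgeR adjusted p = 0.0277). The second had 11.8 and 11.8 CPM in shIRF4 libraries and 7.97 and 7.59 CPM in control libraries (0.60, SE 0.13; edgeR adjusted p = 0.0016). Both shIRF4 libraries lay above both control libraries at either interval, as at 28.7% of all tested intervals. Over the HOXC flanks as a whole, 5 of 30 intervals rose and 0 fell, where 7.26% of all tested intervals rose and 15.5% fell. At the other clusters, 1 rose and 4 fell of 29 flank intervals at HOXA, and 3 rose and 2 fell of 20 at HOXB. At HOXD, 0 rose and 0 fell of 7.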

How the data were processed

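Each file held, per interval, a whole-number read count that the authors deposited as raw counts from featureCounts 2.0.0, per the file headers. Those headers show reads reduced to their 5′ ends and duplicates ignored, which caps dense short intervals more in a deeper library. Per the submitters' processing notes, coordinates are hg38. The aligner, peak caller and any transposase offset are not given in the sources used here. The same 73135 intervals (median 552 bp) were counted in all 4 libraries.

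Counts were tested with edgeR 4.0.16 in R 4.3.3 (filterByExpr, TMM, estimateDisp, glmQLFit with legacy=FALSE and robust=FALSE, group as the only term), with BH adjustment over all tested intervals and a threshold of 0.05, and also with DESeq2 1.42.0 and other settings. SE is the log2 fold change over the square root of F. The edgeR script was checked on simulated data. Library totals ranged from 9112860 to 17954924, and intervals of the fold cover counting and the spread between libraries only.

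Intervals were assigned by midpoint to the shortest gene body holding it, else to the nearest gene end within 100 kb, using RefSeq GRCh38.p14. The HOXA10-HOXA9 readthrough locus was left out, and 1 interval lying only in it went to HOXA10. Of all intervals, 7833 were not assigned. HOX intervals named in full were all called ones and the highest of each cluster. Named partners were the 3 lowest and 3 highest called by gene, taking the interval of smallest p. Other genes were chosen after values were seen. Some listed genes are counted in totals but not reported by name here. The members and lists were chosen with earlier results of these data known. The titles say shIRF4 and the library names siIRF4, and the titles were followed.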

Additional observations from a re-analysis of the deposited data

How the results depend on the processing

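The count of 0 lower HOX intervals, and of 0 called intervals in the HOXA, HOXB and HOXD clusters and among HOX genes, held in every setting run. The 1 higher HOX interval, in HOXC, was lost with DESeq2 (0), against a 1.5-fold change (0) and within 10 kb of a gene (0), and leaving out a library gave 0 (without control replicate 2) to 2 (without control replicate 1). With library totals in place of TMM the median HOX log2 fold change was 0.0680, and the log2 ratios of summed CPM were 0.0726 for HOXA, 0.0488 for HOXB and 0.0789 for HOXC. The HOXB ratio within 10 kb of a gene was -0.0318. Leaving out a library moved the median between 0.000352 and 0.0199, and the ratios between -0.01 and 0.06 for HOXA, -0.03 and 0.03 for HOXB, -0.00582 and 0.0733 for HOXC and -0.10 and 0.15 for HOXD. Called partner and regulator intervals numbered 39, 13 with DESeq2 and 24 to 47 without a library. The count of all called intervals was 16639 and was 4566 with DESeq2, 2886 against a 1.5-fold change, and 10567, 10961, 9043 and 20033 without control replicate 1, control replicate 2, shIRF4 replicate 1 and shIRF4 replicate 2. Signs turned at values near 0: HOXC6 at 54017322 (-0.0583 to 0.0633 without a library, -0.000123 with the replicate block), HOXD8 (-0.229 to 0.00322 without a library) and HOXA13 at 27199188 (-0.0829 to 0.0142 without a library, 0.0146 with library totals). The cause was not tested. Same-numbered libraries did not deviate together (r = -0.03 over intervals), so the numbers are not known to pair them. With the replicate block, 1 HOX interval was higher and 16612 intervals were called in all. Depth limits the low intervals most, with SE up to 0.31 at HOXC10.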
